A study of Mus musculus with 6 samples.

Results

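Lef1, Tcf7, Tcf7l1 and Tcf7l2, the 4 Tcf and Lef transcription factors of the mouse, were examined together with Ctnnb1, which encodes beta-catenin, and Axin2, in bone marrow cells sorted from young and old mice. The members are the 6 genes themselves, chosen by name. They were found through every non-control probe whose identifier is a RefSeq transcript of one of them, which gave 10 probes of 55681 on the array. Lef1, Tcf7l1 and Ctnnb1 have 1 probe each, Tcf7 and Axin2 have 2 and Tcf7l2 has 3. The study compared total RNA from C57BL/6 mice aged 3 months, called young here (3 samples), with RNA from mice of the same strain aged 24 months, called old (3 samples), on 6 Agilent 1-colour arrays. The labels name the cells as bone marrow mesenchymal stem cells and give neither the markers of the sort nor whether each sample is a different mouse. The p-values therefore measure the spread between these samples, which may be technical.

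Tcf and Lef factors bind DNA through a shared HMG box and take their direction from what they recruit. Without a Wnt signal, a destruction complex built on Axin and Apc marks beta-catenin for degradation, and the factors sit on their targets with Groucho (Tle) corepressors. With a signal, beta-catenin accumulates, enters the nucleus and joins the factors as a coactivator, and Axin2 is a widely used feedback target of this step. In bone marrow the factors differ in where they are known to act: Lef1 is used by developing B cells and by T cells, Tcf7 (the protein TCF-1) by T cells and innate lymphoid cells, and Wnt signalling through beta-catenin promotes bone formation by osteoblasts.

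Levels are log2 processed signal minus the 75th percentile of the same array, so 0 is that percentile and 1 unit is a factor of 2. A spot counts as measured where the scanner software marked it well above background. A gene entered the test if its brightest probe was measured on 3 or more of the 6 arrays of either age. Of 23266 genes tested with limma, 925 were higher and 939 lower in old samples at a Benjamini-Hochberg adjusted p below 0.05, together 8.01%. With 1 array left out, higher and lower calls were 314 and 454 without young replicate 1, 13 and 50 without young replicate 2 and 79 and 242 without young replicate 3. They were 558 and 596 without old replicate 1, 0 and 1 without old replicate 2, and 0 and 5 without old replicate 3 (2821 and 2139 at an unadjusted p under 0.05 in the last). With the deposited log2 values the split was 597 higher and 934 lower, and with normexp background correction it was 1806 and 1105. The old arrays were dimmer (75th percentile of the signal 206 to 285, against 277 to 349 on the young arrays), and slide row and age cannot be told apart, each age filling 1 row. The label of the cells was checked against markers. Of 18 stromal marker genes, 9 were well above background on all 6 arrays and 6 on none (Pdgfra, Pdgfrb, Prrx1, Twist1, Foxc1 and Grem1), whereas all 15 genes shared by leukocytes and 9 of the 10 erythroid genes on the array were measured on all 6. The RNA is therefore described below as that of the sorted cells.

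Lef1 and Tcf7 were lower in the old samples, and Tcf7l2, Ctnnb1 and Axin2 did not pass the test. Where old readings were not well above background, limits defined below stood in for them. On that basis Lef1, measured on 1 of the 3 old arrays, was 5.61-fold lower. Tcf7, which was not well above background on any old array, was 1.84-fold lower. Both are point values of the main setting and not lower bounds. Normexp background correction gave log2 changes of -1.09 for Lef1 and -0.21 for Tcf7. Ctnnb1 differed by 0.07. Tcf7l1 was not well above background on any array and was not tested. Thus 2 of the 5 tested members were called lower and none higher, where 4.04% of all tested genes were called lower and 3.98% higher. Tcf7 entered the test only through its young arrays. Lef1 also met the filter by its 3 young arrays, and its 1 measured old array could not have met it. The presence of both among the tested genes thus already favoured a lower value in old samples, and this count is given as a description. Of the 625 genes measured on the 3 young and no old arrays, as Tcf7 was, 33.8% were called lower, and of the 584 measured on 3 young and 1 old array, as Lef1 was, 8.56% were.

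**Figure D1:**
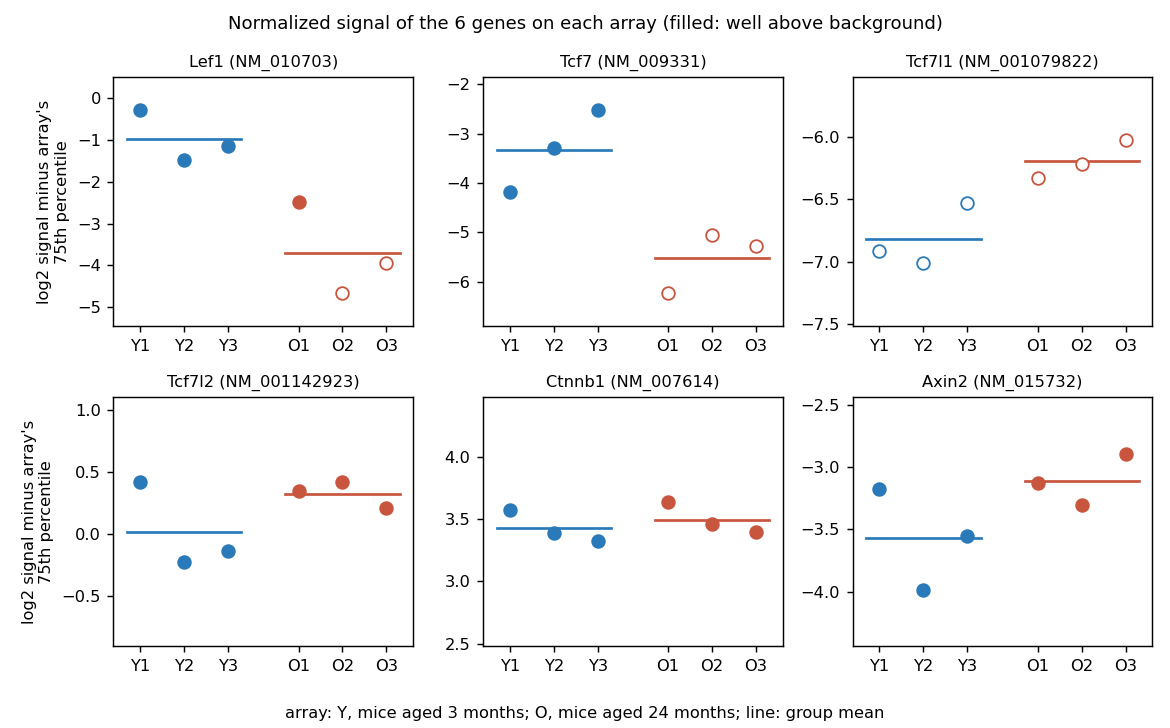
Normalized log2 signal (vertical axis, relative to the 75th percentile of the array) of the probe used for each of the 6 genes on the 3 young (Y, blue) and 3 old (O, red) arrays; points are arrays, filled where well above background, and lines are group means. For Lef1 and Tcf7 every old reading lies below every young one, 2 of the old Lef1 and all 3 old Tcf7 readings being open points, the Tcf7l2, Ctnnb1 and Axin2 groups overlap, and Tcf7l1 has open points only. The vertical ranges differ between panels and levels of different genes are not comparable.

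Lef1, the factor of lymphoid progenitors, was measured with a probe to NM_010703. Its normalized log2 signal was -0.28, -1.48 and -1.13 on young arrays 1 to 3 and -2.49, -4.67 and -3.95 on old arrays 1 to 3. The groups did not overlap, also when old replicates 2 and 3 were set to the lowest level that counted as well above background on their array or their own level, whichever was higher (-3.92 and -3.95). Among all tested genes 36% had groups that did not overlap, 13.1% with old samples lower and 22.9% with old samples higher. The old samples were the more dispersed group, at -3.70 ± 1.11 (mean ± SD, n = 3) against -0.96 ± 0.62 (n = 3) in young samples. Only old replicate 1 was well above background, with a processed signal of 50.9, against 8.81 and 13.3 in old replicates 2 and 3 and 125 to 275 in the young samples. With those limits the fall was 5.61-fold, a log2 change of -2.49. Old replicate 3 (-3.95) lay above its array's lowest such level (-4.21) without being marked, so these limits are a convention. The fitted log2 change, which uses the background readings as they are, was -2.74 ± 0.60 (SE), with a 95% interval of -4.18 to -1.29 and a limma adjusted p of 0.0467. The test was passed narrowly. The adjusted p was 0.0514 with cyclic loess, with a log2 fold change of -2.79, and leaving out any 1 array except old replicate 1 ended the call, at adjusted p between 0.104 and 0.138. Normexp background correction with an offset of 50 gave -1.09 at a limma adjusted p of 0.0152. Adding such an offset shrinks the log2 changes of dim probes.

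Tcf7, which encodes TCF-1, was closer to background. The probe used, to NM_009331, gave -4.19, -3.29 and -2.52 in young replicates 1 to 3, all well above background, and -6.23, -5.06 and -5.27 on old arrays 1 to 3, none of which was. Young replicate 3 was the highest and young replicate 1 the lowest of the young samples. The readings of the groups did not overlap, but the old limits, -4.51, -3.92 and -4.21 for old arrays 1 to 3, reached above young replicate 1. The group means were -3.33 ± 0.83 and -5.52 ± 0.62 (SD, n = 3 each). Because the old samples were not well above background, the change is stated as 1.84-fold lower, the young mean set against the mean of these limits. The fitted log2 change was -2.19 ± 0.49 at a limma adjusted p of 0.0493. This call was narrower than that of Lef1: with normexp the log2 change shrank to -0.21 (adjusted p = 0.479), and quantile normalization (adjusted p = 0.0657), the deposited values (0.0637) and leaving out any 1 array except young replicate 1 (0.0910 to 0.137) ended it. The second Tcf7 probe read background on all 6 arrays and gives no second measurement.

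The annotated start regions of these genes are shown because Lef1 and Tcf7 moved in the same direction while Axin2, the feedback target, did not pass the test. Sequences are RefSeq windows of GRCm38.p6 that run from 250 bases before to 50 bases after a transcript start, in the direction of transcription. All 6 genes matched, with 12 windows. Capitals mark the core of the Tcf and Lef recognition motif, CTTTG or its reverse complement CAAAG. The Lef1 lines are its first annotated start, at chr3:131110047-131110346 on the plus strand, and an internal start at chr3:131156044-131156343 on the plus strand. Tcf7 is shown at chr11:52282965-52283264 on the minus strand and Axin2 at chr11:108920099-108920398 on the plus strand.
Lef1 first start: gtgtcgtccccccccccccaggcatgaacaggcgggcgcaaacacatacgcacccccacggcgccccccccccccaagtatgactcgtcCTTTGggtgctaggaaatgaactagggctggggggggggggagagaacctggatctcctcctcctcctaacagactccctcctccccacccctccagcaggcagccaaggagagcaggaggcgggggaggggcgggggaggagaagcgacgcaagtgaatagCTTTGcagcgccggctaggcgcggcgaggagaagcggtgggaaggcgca
Lef1 internal start: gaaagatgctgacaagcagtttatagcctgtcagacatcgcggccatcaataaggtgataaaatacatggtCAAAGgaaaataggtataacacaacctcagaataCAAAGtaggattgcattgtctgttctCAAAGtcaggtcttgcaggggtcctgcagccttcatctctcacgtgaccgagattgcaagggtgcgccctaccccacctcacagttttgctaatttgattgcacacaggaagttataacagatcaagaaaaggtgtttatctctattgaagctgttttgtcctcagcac
Tcf7: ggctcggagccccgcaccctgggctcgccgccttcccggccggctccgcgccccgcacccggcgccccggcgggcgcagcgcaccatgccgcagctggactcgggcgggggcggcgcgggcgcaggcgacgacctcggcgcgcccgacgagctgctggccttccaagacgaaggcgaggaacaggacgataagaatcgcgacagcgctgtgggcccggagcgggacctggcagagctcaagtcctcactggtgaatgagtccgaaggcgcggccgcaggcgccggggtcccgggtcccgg
Axin2: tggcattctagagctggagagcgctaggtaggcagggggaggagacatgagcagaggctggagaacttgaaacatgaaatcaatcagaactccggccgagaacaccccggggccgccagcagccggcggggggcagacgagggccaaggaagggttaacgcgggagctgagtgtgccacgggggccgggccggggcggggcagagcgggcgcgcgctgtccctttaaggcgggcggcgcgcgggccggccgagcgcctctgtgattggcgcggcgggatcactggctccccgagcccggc

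The core letters were found in 7 of the 12 member windows, and 53.9% of all 32851 mouse windows of this length hold them. The longer forms CTTTGAA as well as CTTTGAT, and also CTTTGTA as well as CTTTGTT, which contain the core and were searched on both strands, were found in 2 of the 12 windows and in 16.9% of all. These 2 were the internal Lef1 start, where the letters read TACAAAG, and the second Tcf7l2 start, where they read CTTTGTT. The windows printed for Tcf7 and Axin2 have no core letters, which says nothing of sites outside them. The printed Tcf7 start may lie inside longer transcripts of the gene, so its window is not read as the region upstream of the gene. A match of letters is a description of the sequence and not of binding.

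The remaining factors differed in how well they could be measured. Tcf7l1, known as a repressor in embryonic stem cells, read -6.91, -7.01 and -6.53 on the young arrays and -6.33, -6.22 and -6.03 on old arrays 1 to 3, at background on every array. Its old values are the higher ones, by 0.62; over the 19640 probes that read background on all 6 arrays the median difference was 0.61, and 85.5% were higher in old samples. No direction is given for Tcf7l1. The fitted changes of Lef1 (-2.74) and Tcf7 (-2.19) had the opposite sign, but they include old readings not well above background. The other Tcf7 probe, at background on every array, was higher in old samples by 0.36. What the background shift contributed to the Lef1 and Tcf7 results was not tested.

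Tcf7l2 (the protein TCF-4), the family member known from the intestinal epithelium, was covered by 3 probes to different transcript records. The brightest, to NM_001142923, was 0.42, -0.22 and -0.14 on the young arrays and 0.34, 0.42 and 0.21 on old arrays 1 to 3. The groups overlapped through young replicate 1, and the difference was 0.30 ± 0.18 (SE; limma adjusted p = 0.337), with a 95% interval of -0.15 to 0.75, which excludes a fall as large as the limit for Lef1. The probe to NM_001142920 was well above background on 5 arrays, with old replicate 1 (-4.56) at background, and its 2 measured old values (-2.70 and -3.02) lay above the 3 young values (-3.67 to -3.29). Its change was 0.09 ± 0.48 (limma adjusted p = 0.926 over all 31286 probes tested singly, of which 7.8% were called and 3.77% called lower). The third probe, to NM_001142918, was at background on all 6 arrays. When the 3 probes were averaged the gene's log2 difference was -0.0056.

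**Figure D2:**
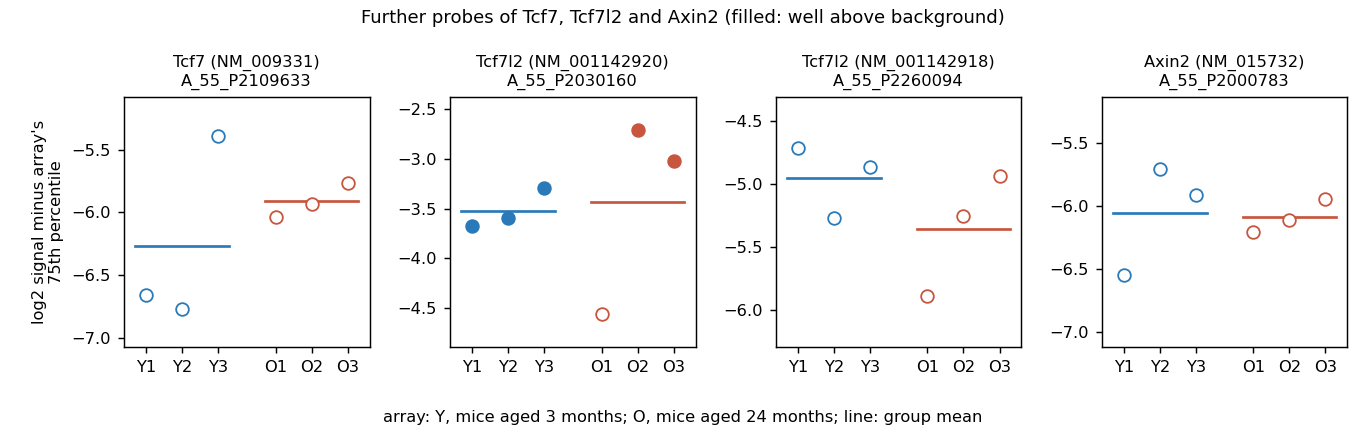
Normalized log2 signal of the 4 further probes of Tcf7, Tcf7l2 and Axin2 on the 3 young (Y, blue) and 3 old (O, red) arrays; filled points are well above background and lines are group means. Only the Tcf7l2 probe to NM_001142920 has filled points, on 5 of the 6 arrays, and its old values span a wider range than its young values.

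Ctnnb1 showed no difference past the threshold. Beta-catenin, its product, is both the coactivator of the Tcf and Lef factors and a part of cadherin junctions. Its probe, to NM_007614, gave 3.57, 3.39 and 3.32 on the young arrays and 3.63, 3.46 and 3.39 on old arrays 1 to 3. The groups overlapped almost completely, at 3.43 ± 0.13 and 3.49 ± 0.12 (SD, n = 3 each). The difference was 0.07 ± 0.11 (SE; limma adjusted p = 0.726), with a 95% interval of -0.20 to 0.33. The sign turned with cyclic loess and without old replicate 1, at -0.0040 and -0.00093.

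Axin2, a scaffold of the destruction complex that Wnt signalling induces, had 1 measured probe, to NM_015732. It gave -3.18, -3.99 and -3.55 on the young arrays and -3.13, -3.30 and -2.89 on old arrays 1 to 3, all well above background but dim, with processed signals of 22.0 to 37.0. The highest young array reached into the old range. The difference was 0.46 ± 0.22 (SE; limma adjusted p = 0.238), with a 95% interval of -0.08 to 1.01. It stayed positive under every setting tried, from 0.22 to 0.66, and passed the threshold in none. The other Axin2 probe was at background on all arrays.

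Since every value is scaled by its own array, the members were also compared with each other within arrays, which subtracting 1 value per array cannot change. The log2 difference Lef1 minus Ctnnb1 was -3.85, -4.87 and -4.45 on the young arrays and -6.12, -8.13 and -7.34 on old arrays 1 to 3. With old replicates 2 and 3 at their Lef1 limits (-7.38 and -7.34), the change was -2.56. Lef1 minus Tcf7l2 and Lef1 minus Axin2 gave -2.79 and -2.95. In all 3 pairs the groups did not overlap at these limits. The pairs share the same Lef1 readings and are not separate results. Such differences do not remove a shift that differs between dim and bright probes. On the readings as they are, each of these pairs had an exact permutation p of 0.1 (0.167 adjusted over 10 pairs). For Tcf7, which gives only limits on the old arrays, the same differences overlapped: Tcf7 minus Ctnnb1 was -7.76, -6.67 and -5.85 on the young arrays and at most -8.14, -7.38 and -7.60 on the old. The differences among Tcf7l2, Ctnnb1 and Axin2, measured on every array, overlapped in all 3 pairs (exact permutation p of 0.3 to 0.6, two-sided, n = 3 and 3, where 0.1 is the smallest this design allows, and 0.375 to 0.6 adjusted over 10 pairs).

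Early B cell genes were lower on the same arrays as Lef1. The median level of the 14 tested early B cell genes was 1.03, -0.16 and 0.44 on young arrays 1 to 3 and -1.33, -2.40 and -1.96 on old arrays 1 to 3. Over the 4 arrays where Lef1 was measured, both had young replicate 1 highest and old replicate 1 lowest, and no order is read from old replicates 2 and 3. Of these 14 genes 10 were called lower and none higher, and their median log2 fold change was -2.34, beside 0.07 over all genes tested. Rag1, which encodes a subunit of the V(D)J recombinase and like Lef1 was measured on 1 old array, read -0.65, -2.04 and -1.10 on young arrays 1 to 3 and -3.63 on old array 1. Rag2, the other subunit and also measured on 1 old array, went the other way there. It read -2.21, -3.20 and -2.78 on young arrays 1 to 3 and -1.84 on old array 1, and did not pass (limma adjusted p = 0.329). Cd79a, at -0.27, did not pass either (limma adjusted p = 0.305). Lef1 minus the median of the B cell genes on the same array was -1.31, -1.32 and -1.57 on the young arrays, -1.15 on old array 1 and at most -1.52 and -1.99 on old arrays 2 and 3, and the groups overlapped. Lef1 minus the T cell median overlapped too, whereas Lef1 minus the NK cell or the leukocyte median did not, also at the limits. Markers of some other cells fell as well, where 4.04% of all tested genes were called lower and 3.98% higher. Of 12 tested monocyte and macrophage genes 7 were called lower (median -1.94). So were 4 of 12 neutrophil genes (-1.14) and 4 of 9 osteoblast genes (-1.82), of which 1 further gene was called higher. Of 10 tested erythroid genes none was called (median -0.03), and of 7 endothelial genes 1 was called higher and none lower (0.36). Of 11 stromal genes 2 were called lower and 1 higher (-1.08). The summed signal of the 15 B cell genes ranged from 45.8 to 88.6 times the array's percentile on the young arrays and from 8.09 to 17.8 in old samples, and none was at background on every array. In sorted but mixed RNA, fewer cells of a type and less RNA per cell cannot be told apart, and the part of B cell or other cell content in the Lef1 result was not tested.

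The order of the young arrays in Tcf7, replicate 3 highest and replicate 1 lowest, was also that of 5 of the 10 marker lists: T cell, NK cell, leukocyte, neutrophil and stromal genes. The median of the 14 tested T cell genes was -1.06, -0.58 and -0.03 and that of 8 NK cell genes was -3.07, -2.36 and -1.26 in young replicates 1 to 3. In old samples the T cell median was -1.41, -1.91 and -1.42, and Tcf7 was at background, so no order can be read there. The T cell list did not move one way: the homing receptor Ccr7 fell by 2.40 ± 0.47 and Thy1, also listed among the stromal markers, by 1.56 ± 0.33, whereas Cd3e rose by 0.80 ± 0.13 and Cd8a by 0.61 ± 0.13 (SE, limma adjusted p of 0.0276 to 0.0456), and 10 members did not pass. Of the 18 T cell genes Cd247 and Trat1 were at background on every array. The list's summed signal was 20.5 to 26.7 on the young arrays and 22.5 to 25.6 in old samples. This sum is weighted to the brightest genes, among them Cd4 and Cd3e, whose old means were higher by 0.36 and 0.80. The median log2 fold change of the 14 tested genes was -0.56. Groups did not overlap for 7 genes lower and 3 higher in old samples, beside 13.1% and 22.9% of all tested genes. Tcf7 minus the T cell median was -3.12, -2.70 and -2.49 on the young arrays and at most -3.10, -2.02 and -2.79 on the old, which overlapped. Tcf7 minus the B cell, NK cell and leukocyte medians overlapped at the limits as well. Of 10 NK cell genes Klrk1 was at background throughout, and 2 of 8 tested were called lower, with a median log2 fold change of -0.38. Their summed signal, also weighted to the brightest genes, was 9.17 to 15.0 on the young arrays and 9.13 to 9.25 in old samples. Of the 15 genes shared by leukocytes 8 were called lower and none higher, with a median of -1.28 and a summed signal of 178 to 315 on the young arrays and 99.8 to 118 in old samples. The part of these cell types in the Tcf7 result was not tested.

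**Figure D3:**
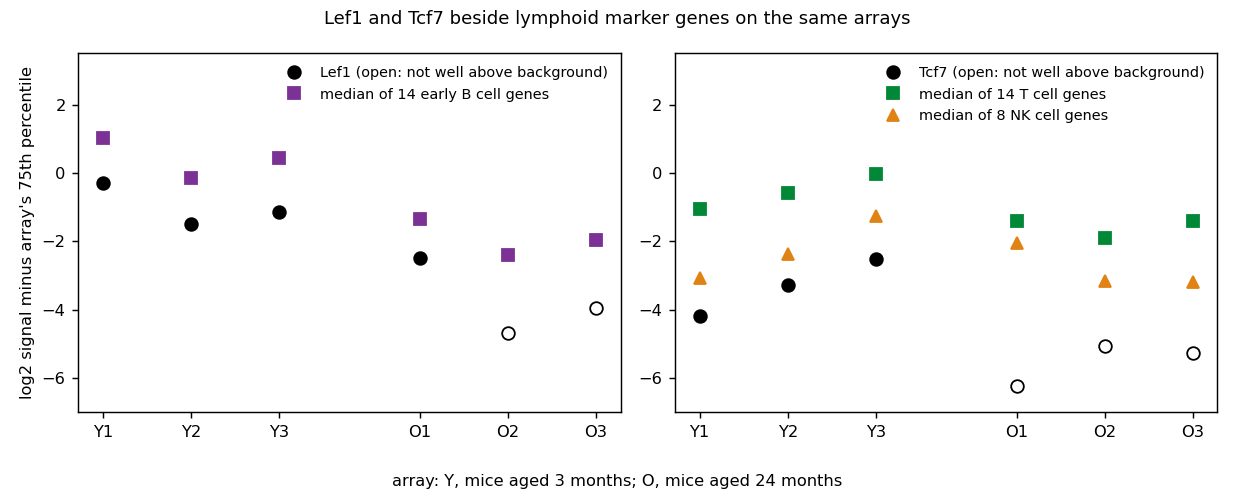
Normalized log2 signal of Lef1 (left) and Tcf7 (right) on each young (Y) and old (O) array, with the median of 14 early B cell genes (left) and of 14 T cell and 8 NK cell genes (right) on the same arrays. Open points are readings not well above background (Lef1 on old arrays 2 and 3, Tcf7 on all old arrays) and have no order. The young order of Tcf7 is shared by the T cell and NK cell medians and by 3 further marker lists that are not drawn.

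Genes with the most similar profile were taken as those with the smallest root mean square difference after centring, over the 6 arrays and 13534 other named genes. No such genes are given for Lef1, Tcf7 and Tcf7l1, which were not well above background on all arrays. For Ctnnb1 the closest genes were Mmgt1 (0.019), Uggt1 (0.025), a folding sensor of the endoplasmic reticulum, and Lamtor3 (0.029), a lysosomal adaptor. They were Ppp1r27 (0.058), Fmnl2 (0.075) and Arl4c (0.075) for Tcf7l2, and Ppp1r1b (0.085), Arl10 (0.090) and Has2os (0.093) for Axin2. None of these 9 neighbours of Ctnnb1, Tcf7l2 and Axin2 passed the test between the ages. They were chosen on the same arrays for profiles close to members that did not pass, so this is no separate result.

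Few tested genes in the rest of the Wnt pathway passed the threshold. Of 140 further genes in 8 pathway lists on the array, 89 were tested, 2 were called higher and 1 lower, or 3.37% against 8.01% of all genes. Their median log2 fold change was 0.10, beside 0.07 over all genes. In 3 of the 89 the fitted difference exceeded 1 log2 unit. At an unadjusted limma p below 0.05, 23 of the 89 were higher and 8 lower, beside 3923 and 2547 of the 23266 genes. Pathway genes measured on fewer than 3 arrays were not tested, and nothing is said of their change.

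**Figure D4:**
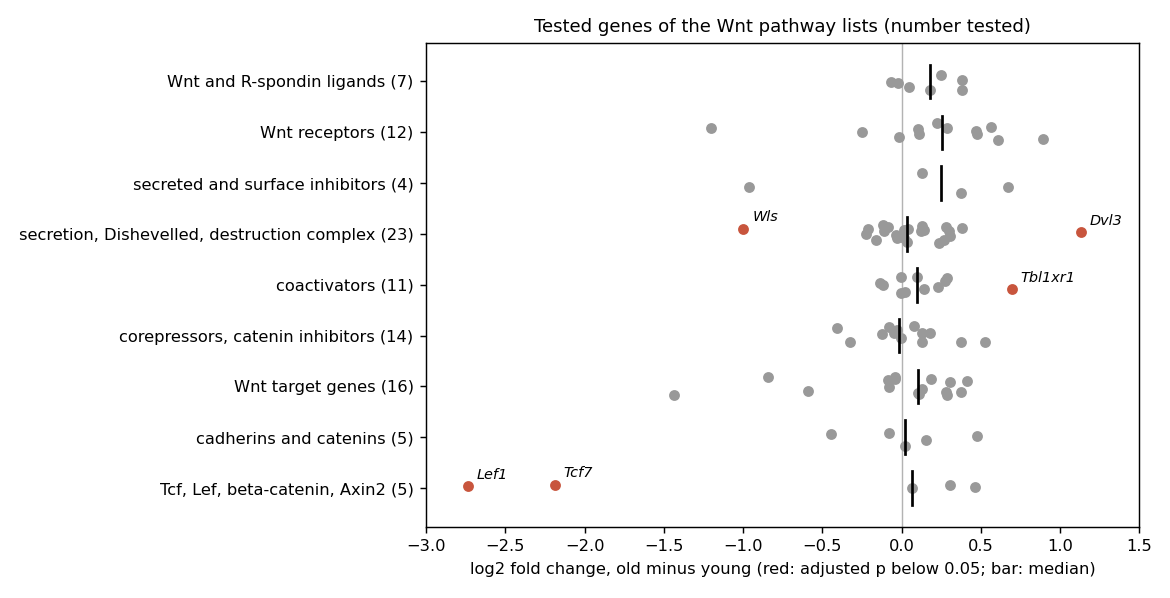
Log2 fold change (old minus young, horizontal axis) of each tested gene in 8 Wnt pathway lists and of the 5 tested members; points are genes, red where the limma adjusted p is below 0.05, and bars are list medians. The fitted values of Lef1 and Tcf7, which include background readings, lie to the left of every other plotted gene, and Wls, Dvl3 and Tbl1xr1 are the other called genes.

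Ligands and receptors gave no call. Of 23 Wnt and R-spondin genes 10 were at background on every array and 7 were tested, and their median was 0.18. Wnt1, the smallest p among them, was 1.29 ± 0.11 on the young arrays and 1.67 ± 0.24 in old samples (limma adjusted p = 0.151). Its further probe was at background on every array, and the mean of the probes differed by 0.09. Wnt5b differed by 0.25. Of 12 tested receptors none passed, with a median of 0.25. The Wnt co-receptors Lrp5 and Lrp6 lay closest, at 0.47 ± 0.12 (limma adjusted p = 0.0631) and 0.56 ± 0.15 (limma adjusted p = 0.0745). For both all old arrays were above all young arrays, as for 22.9% of all tested genes. Of 15 secreted or surface inhibitors only 4 were measured well enough to test. Sfrp4, a secreted Wnt antagonist, differed by 0.67 ± 0.16 (limma adjusted p = 0.0593) and Kremen1, a Dickkopf receptor, by -0.96 ± 0.26 (limma adjusted p = 0.0757), in opposite directions. A further Kremen1 probe was at background on every array, and the mean of the Kremen1 probes differed by -0.38.

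Inside the cell, all 23 genes of Wnt secretion, Dishevelled and the destruction complex were well above background on all arrays, and 1 rose and 1 fell. Dvl3, which relays the signal from Frizzled receptors, was 4.50, 4.19 and 4.30 on the young arrays and 5.23, 5.46 and 5.69 on old arrays 1 to 3. It rose by 1.13 ± 0.15 (SE; limma adjusted p = 0.0228), and no young array reached an old one. Wls, the carrier that brings Wnt proteins to the cell surface, was -1.85, -1.85 and -1.38 on the young arrays and -2.64, -2.39 and -3.04 in old replicates. It fell by 0.998 ± 0.212 (adjusted p = 0.0445), shrinking to -0.39 with normexp, where it did not pass, and its call ended when any 1 array was left out (0.0774 to 0.106). The kinase, scaffold and ubiquitin ligase genes of the destruction complex, among them Apc, Axin1, Gsk3b and Btrc, did not pass. Of 11 tested coactivators Tbl1xr1, a cofactor of beta-catenin, rose by 0.69 ± 0.15 (adjusted p = 0.0462). Its further probe was -0.15 ± 0.13, and the mean of the probes (0.27) did not pass. None of 14 corepressors and beta-catenin inhibitors passed. Ctnnbip1, which blocks the binding of beta-catenin to the factors, differed by -0.41 ± 0.10 (adjusted p = 0.0561), and Tle5, a short Groucho relative, by 0.53 ± 0.12 (adjusted p = 0.0566), although its further probe was at 0.01.

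Among 16 tested Wnt target genes none passed, and their median was 0.10. Tnfrsf19, a receptor of the tumour necrosis factor family, was -1.43 ± 0.34 (adjusted p = 0.0584), with 1 old array at background and a further probe at -0.08. Cd44, a hyaluronan receptor, was 0.28 ± 0.08 (adjusted p = 0.0788). The classic targets Myc and Ccnd1 did not pass either. None of 5 tested cadherin and catenin genes passed, and the nearest were Cdh2 (N-cadherin) at 0.47 ± 0.12 and Ctnnal1 at -0.44 ± 0.13 (adjusted p of 0.0680 and 0.0979).

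**Figure D5:**
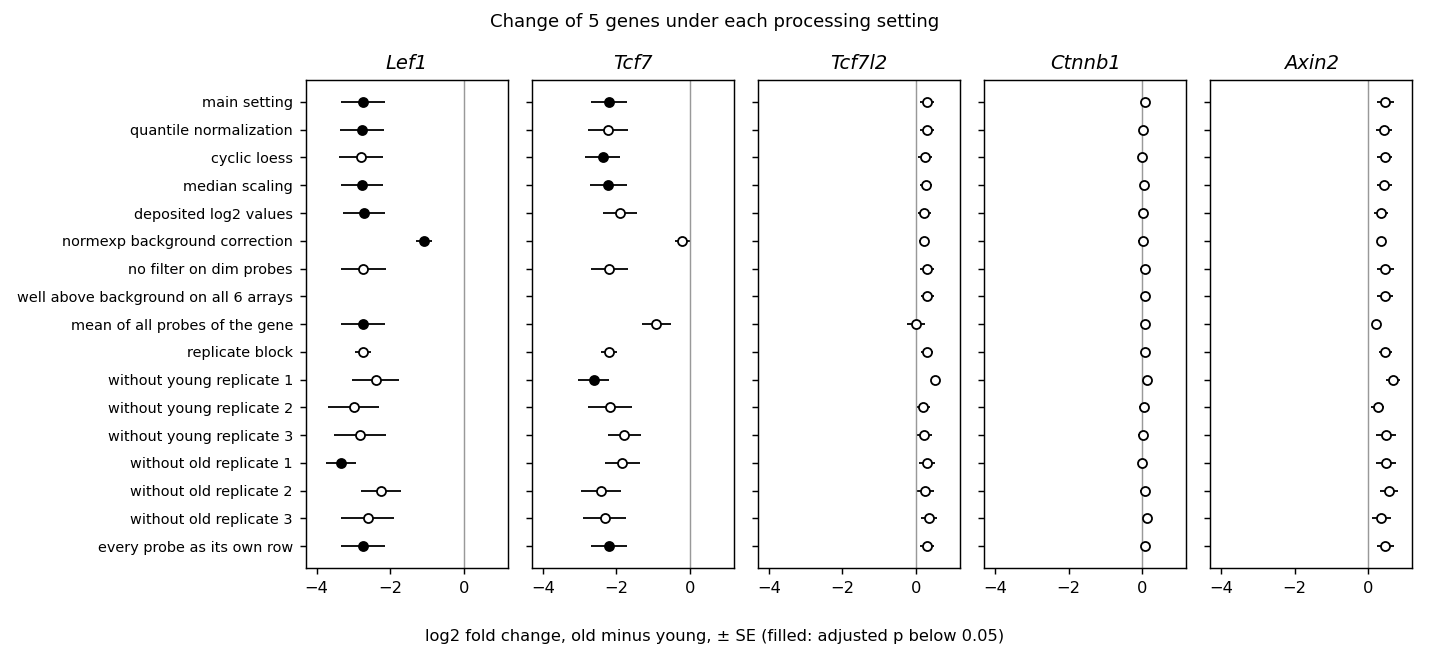
Log2 fold change (old minus young, horizontal axis, ± SE) of the 5 tested members under the main setting, 10 other processing settings and the omission of each array; filled points have a limma adjusted p below 0.05. The fitted values of Lef1 and Tcf7 stay below 0 throughout, with Tcf7 nearest to 0 under normexp (-0.21), and their points change between filled and open, while Tcf7l2, Ctnnb1 and Axin2 are open in every setting.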

How the data were processed

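Gene expression was measured in 6 samples of sorted mouse bone marrow cells, 3 per age, grouped by the sample titles. The scanner files hold spot intensities that the authors deposited as written by Agilent Feature Extraction 10.7.3.1, per the file headers (the submitters' processing notes name 10.5.1.1); the processed intensity is background-subtracted within each array, with no scaling across arrays. A table of log2 values for 52095 probes was also deposited, and its scaling method was not found in the labels or headers. Each column correlated at 0.9986 or more with its own array's log2 intensity (column medians 4.91, 4.92 and 4.95 for young and 4.94, 4.92 and 4.87 for old replicates 1 to 3), and they served as an alternative.

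Control spots and spots marked as outliers were left out, repeated spots were averaged, and log2 processed intensities had the array's 75th percentile over probes subtracted. The number of arrays limits the precision. Accessions were named through the RefSeq gene table of GRCm38.p6, which matched 26413 of 55681 probes. Each gene was represented by its brightest probe over all arrays. The 2 ages were fitted in limma 3.58.1 (R 4.3.3) without covariates, with Benjamini-Hochberg adjustment over 23266 genes, and the steps were tested on simulated data. Python 3.11.15 and pandas 2.3.3 read the files. The scanner files have no mean spot signal, so normexp (offset 50) used the median signals. The genes named besides the members are, of each pathway list, those past the threshold or, where none was, the 2 with the smallest p, and the 3 with the profile most like a member measured on all arrays. Marker genes, and Apc, Axin1, Gsk3b, Btrc, Myc and Ccnd1, were named outside this rule. The members and lists were chosen with earlier results of these data known.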

Additional observations from a re-analysis of the deposited data

How the results depend on the processing

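The fitted values of Lef1 and Tcf7 stayed lower in old samples under every setting tried that could test them. The Lef1 call ended with cyclic loess (-2.79), without the filter on dim probes (-2.74) and with the replicate block (-2.74). Tcf7 lost its call with quantile normalization (-2.23), the deposited values (-1.90), normexp (-0.21), the mean of both probes (-0.92), no filter (-2.19) and the replicate block (-2.19). With 1 array left out, values ran from -3.34 to -2.25 for Lef1 and from -2.62 to -1.79 for Tcf7. Neither was tested when all 6 arrays had to be above background. No setting brought Tcf7l2, Ctnnb1 or Axin2 past the threshold. Signs turned for Tcf7l2 with the mean of its probes (-0.0056), for Ctnnb1 with cyclic loess (-0.0040) and for Ctnnal1 with the mean of its probes (0.30). With 1 array left out Ctnnb1 ran from -0.00093 to 0.14. The causes were not tested.

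Over all genes, calls were 597 higher with the deposited values and 1806 with normexp. They were 0 higher and 0 lower by limma without the filter (9009 and 2653 at an unadjusted p under 0.05) and with the replicate block (3223 and 2331). Deviations of same-numbered samples correlated at -0.030, 0.017 and -0.0087, which shows no pairing but with so few samples cannot exclude it. With 1 array left out, 0 to 558 genes were higher and 1 to 596 lower.

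Of the 89 pathway genes, 1 was higher with quantile, cyclic loess, median scaling or the mean of probes, 10 with normexp, 5 when measured on all arrays, and 0 without the filter or with the block (15 and 17 unadjusted). There were 2 lower with median scaling, the deposited values, the mean of probes or measurement on all arrays, and 0 with normexp, without the filter or with the block (7, 8 and 6 unadjusted). With 1 array left out 0 to 1 were higher (13 to 18 unadjusted) and 0 lower (6 to 7 unadjusted). Leaving out any 1 array ended the calls of Wls and Tbl1xr1, and leaving out 4 of the 6 in turn ended that of Dvl3. Signal over background limits Tcf7, Tcf7l1 and the old Lef1 values.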
